A study of Mus musculus with 12 samples.

Results

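Expression of 9 genes of GABA handling and GABA-B signalling was followed through 12 RNA-seq libraries of mouse astrocyte cultures: Gad1, Gad2, Slc6a11, Abat, Maob, Gabbr1, Gabbr2, Kctd8 and Kctd12. They are 9 of the 55573 genes in the count table, named by symbol, and all 9 passed the filter on low counts that left 16761 genes to test. The set was chosen on results of these same libraries, in which Gad1 and Kctd8 rose with VIP in control virus cultures and the VIP response of Gad1 was smaller with ACREB. Those 2 responses are therefore given as descriptions and support nothing, and the remaining members were added for their place in the same pathway.

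The cultures came from forebrains of C57BL6/J pups at postnatal day 0 to 2 and were shaken and replated at day 7 in vitro to enrich astrocytes. Control cultures carried a lentivirus with the empty vector pCIG3 (pCMV-IRES-GFP), and ACREB cultures a lentivirus that expresses ACREB, which blocks DNA binding of the cAMP-responsive transcription factor CREB in a dominant-negative manner. After 5 days of virus, PBS or VIP (vasoactive intestinal peptide, a neuropeptide whose receptors raise cAMP, at 0.5 µM) was added to the bath for 30 min, and RNA was taken after a further 90 min. Each of the 4 combinations had 3 libraries of polyA RNA, numbered 1 to 3, read with a strand-specific protocol. Whether libraries of 1 group stem from different cultures or different pups is not stated in the labels. The p-values below thus reflect the spread among these libraries alone, and that spread could be technical. ACREB itself has no entry of its own in the gene counts, so its expression was not checked here.

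GABA is made from glutamate by the glutamate decarboxylases GAD67 (Gad1) and GAD65 (Gad2), and astrocytes can also make it from putrescine along a route that includes monoamine oxidase B (Maob). Astrocytes take GABA up through transporters that include GAT3 (Slc6a11), and GABA transaminase (Abat) breaks it down. The metabotropic GABA-B receptor is an obligate pair of GABBR1, which binds GABA, and GABBR2, which couples to Gi and Go proteins. KCTD8, KCTD12 and KCTD16 are auxiliary subunits that bind GABBR2 and shape the receptor's G protein signal.

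CREB binds the cAMP response element TGACGTCA, or its shorter form TGACG, and promoters of the members were searched for both on both strands. RefSeq's table for GRCm38.p6 gave a window of 250 bases before to 50 after the start for 7 of the 9 members, all but Abat and Maob. The full element lay in 1 of the 7 windows, that of Kctd8, and 588 (1.79%) of all 32851 RefSeq promoters held it. The short element lay in 3 of the 7 windows (Gad2, Kctd8 and Kctd12) against 6837 of all promoters (20.81%), and every full element also holds the short one on each strand. The 2 members that rose with VIP are shown first, then the second KCTD partner, 5′ to 3′ on the gene's strand and ending just before the start of transcription or before the nearest annotated exon, with either element in capitals.
Kctd8 promoter, chr5:69341710-69341959, minus strand: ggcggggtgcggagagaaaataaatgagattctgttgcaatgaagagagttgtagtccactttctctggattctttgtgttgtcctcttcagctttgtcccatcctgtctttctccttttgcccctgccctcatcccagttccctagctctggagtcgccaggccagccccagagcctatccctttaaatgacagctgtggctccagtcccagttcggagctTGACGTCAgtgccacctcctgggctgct
Gad1 promoter, chr2:70561879-70562041, plus strand: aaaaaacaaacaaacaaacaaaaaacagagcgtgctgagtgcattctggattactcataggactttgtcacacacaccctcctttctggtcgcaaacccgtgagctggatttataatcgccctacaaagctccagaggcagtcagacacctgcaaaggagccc
Kctd12 promoter, chr14:102982638-102982887, minus strand: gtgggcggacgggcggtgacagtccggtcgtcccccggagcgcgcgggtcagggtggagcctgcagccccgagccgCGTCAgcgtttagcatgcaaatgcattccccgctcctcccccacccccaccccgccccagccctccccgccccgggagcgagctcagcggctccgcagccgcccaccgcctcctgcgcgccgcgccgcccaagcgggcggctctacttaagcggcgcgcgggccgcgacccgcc
The Kctd8 element occupies chr5:69341730-69341737 and begins 28 bases before the RefSeq start. Gad1 had neither form in its window. That window is set on the RefSeq start at 70562129, inside the annotated gene, which begins at 70553072, and the stretch before the latter was not searched. Kctd12 had the short form on the opposite strand beginning 174 bases before its start, and Gad2 had it beginning 33 bases before. Slc6a11, Gabbr1 and Gabbr2 had neither form in their windows. A match describes the letters and not a bound site, and its absence says nothing about CREB.

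Total counts ran from 16571398 to 20529238 per library. Control PBS library 2 stood apart on the first principal component, at 61.0 where the next library, ACREB PBS 2, lay at 26.0. GC content and gene length together explained 43.1% of the variance of departures from the gene means in control PBS 2. In ACREB PBS 2 they together explained 18.0%, followed by ACREB VIP 1 (15.5%) and control VIP 1 (14.1%). Astrocyte markers were abundant in all libraries, with 10 markers summing to 5477 to 6619 CPM (counts relative to library size, with sizes adjusted by TMM), led by Slc1a3. The gene said to lead a list has the most CPM, which is not corrected for length. Microglia markers (8 genes) summed to 959 to 2529 CPM, oligodendrocyte lineage markers (9 genes, led by Olig1) to 934 to 1600 CPM and neuron markers (12 genes, led by Stmn2) to 131 to 221 CPM. Fibroblast, mural and endothelial markers, led by Col1a1, summed to 110 to 234 CPM. GABAergic interneuron markers (13 genes, led by Reln) summed to 85.4 to 155 CPM, and among them Lamp5 was at 0 in all 12 libraries, as was the endothelial marker Cldn5.

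The members spanned a wide range of levels. Per kilobase of exon, so that genes can be compared, Abat was highest at 31.0 ± 1.57 CPM per kb (mean ± SD, n = 12 libraries of all 4 groups), and Kctd12 followed at 24.8 ± 5.70. Abat exceeded Kctd12 in 10 of 12 libraries, and the ranges of the 2 genes overlapped. Gabbr1 at 9.09 ± 0.794 and Slc6a11 at 3.41 ± 1.13 each lay apart from their neighbours, with no overlap over the 12 libraries. Gabbr2 (0.970 ± 0.320), Gad1 (0.797 ± 0.408) and Maob (0.759 ± 0.157) had no single order over the 4 groups: Gabbr2 exceeded Gad1 in 8 of 12 libraries and Gad1 exceeded Maob in 6 of 12. In control PBS, Gabbr2 (0.753 to 1.69 CPM per kb) and Maob (0.639 to 0.986) lay above Gad1 (0.347 to 0.519) without overlap. In control VIP, Gad1 (1.13 to 1.71) lay above Maob (0.573 to 0.738) without overlap and exceeded Gabbr2 (0.694 to 1.16) in each of the 3 libraries. Kctd8 (0.357 ± 0.315) lay below Maob in 10 of 12 libraries, and Gad2 (0.0595 ± 0.0393) below Kctd8 in 11 of 12.

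**Figure D1:**
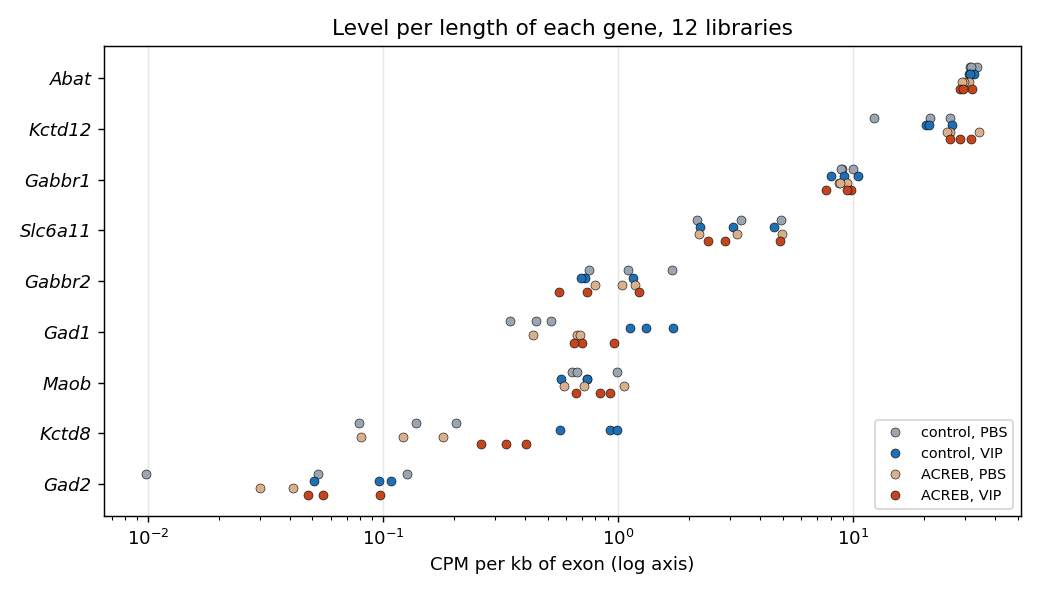
Level of each of the 9 genes in CPM per kb of exon on a log axis, 1 point per library, coloured by group (n = 3 each). Abat and Kctd12 lie highest, near 31.0 and 24.8 on average, Gad2 lowest, and the Gad1 and Kctd8 points of control cultures with VIP lie to the right of their other points; the Gad2 library at 0 is not drawn.

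Within pairs of related genes, 1 partner dominated in every library. Per length, Gad1 exceeded Gad2 with a median ratio of 16.2 (2.75 to 53.1 over the 11 libraries with a Gad2 count), and Gabbr1 exceeded Gabbr2 with a median ratio of 10.0 (5.88 to 17.4, 12 libraries). Kctd12 exceeded Kctd8 with a median ratio of 99.4 (21.1 to 329). In a comparison with a gene outside the set, picked after its values were seen, the member was the lower of the pair. Maoa, the other monoamine oxidase, exceeded Maob with a median ratio of 27.1 (22.9 to 39.1). A further auxiliary subunit gene, Kctd16, had 83 counts in all and lay at 0.230 to 0.562 CPM, too low to be tested. Kctd12b, also listed as a GABA-B partner and named after its values were seen, was tested. It had 21.2 CPM on average, or 4.32 CPM per kb.

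**Figure D2:**
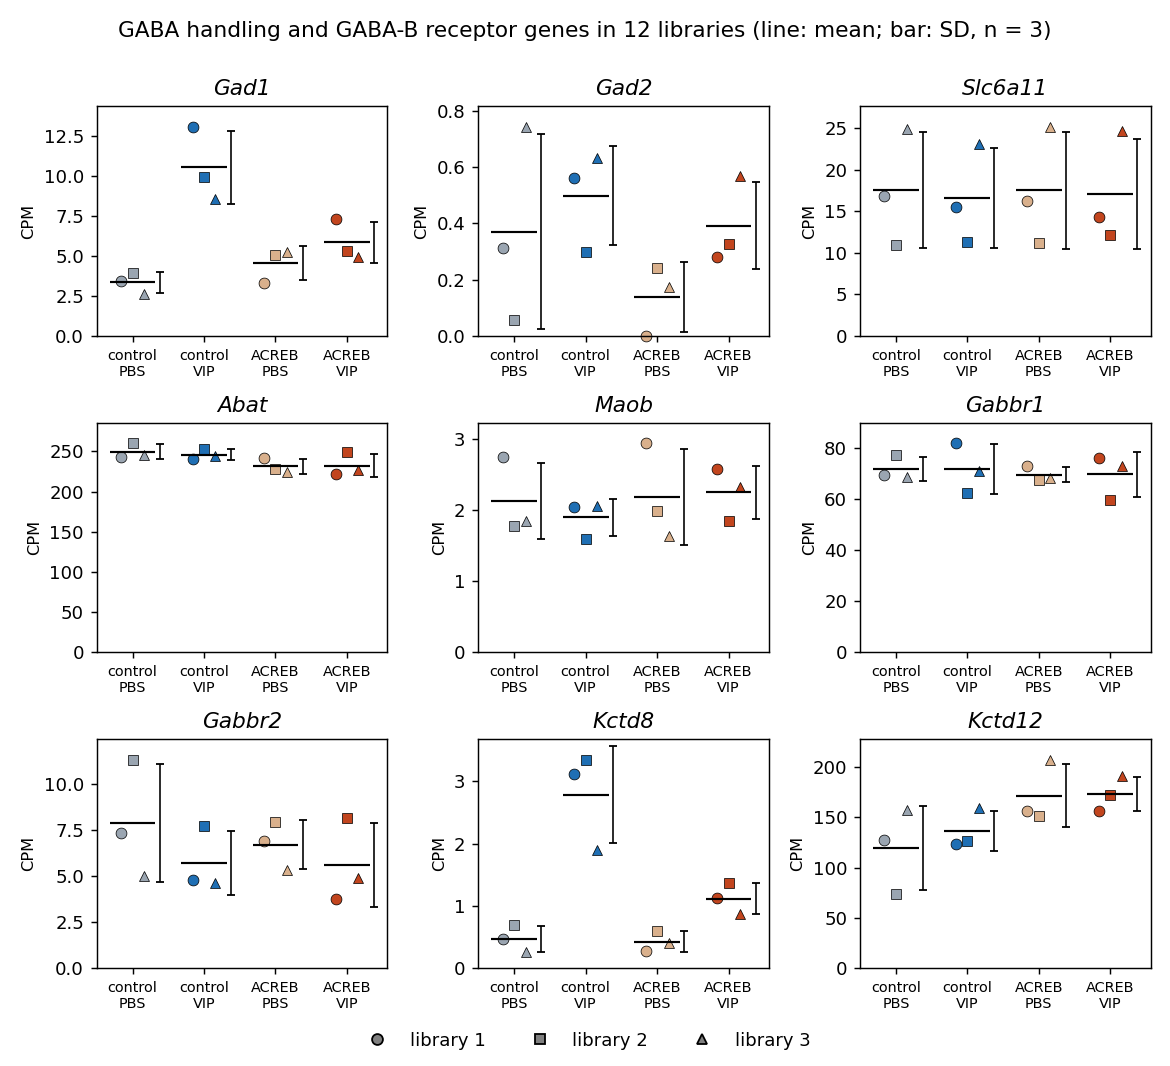
CPM of each gene in the 12 libraries by group (control or ACREB virus, PBS or VIP), with the library number as symbol, the mean as a line and the SD (n = 3) as a bar; every axis starts at 0. The 3 control VIP libraries lie above all others for Gad1 (8.60 to 13.1 CPM) and Kctd8 (1.90 to 3.34 CPM), while Slc6a11 separates by library number and not by group, and Gabbr2 is highest in library 2 of each group.

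Gad1 (ENSMUSG00000070880, chromosome 2, 70553072 to 70602014, plus strand, GRCm38), the gene for the decarboxylase GAD67, was low at rest and highest in control cultures given VIP. Control PBS libraries 1 to 3 gave 3.43, 3.96 and 2.65 CPM, from 66, 69 and 50 counts, against 13.1, 9.98 and 8.60 CPM in control VIP libraries, from 256, 200 and 163 counts. The lowest VIP library was above the highest PBS library by a wide margin. The fitted log2 difference was 1.66 (SE 0.25, 95% interval 1.11 to 2.21), a 3.15-fold higher level with VIP, past the adjusted threshold that 82 of 16761 genes (0.489%) passed. As this contrast chose the gene, no test is drawn from it.

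With ACREB the Gad1 groups overlapped. The libraries measured 3.32, 5.08 and 5.26 CPM with PBS and 7.35, 5.34 and 4.96 CPM with VIP. The log2 difference was 0.37 (SE 0.25, interval -0.17 to 0.91; edgeR adjusted p = 1.00, unadjusted p = 0.165), and same-numbered libraries differed by 0.81, 0.05 and -0.06 on the log2(CPM + 2) scale against 1.48, 1.01 and 1.19 with control virus. The ACREB difference thus came mostly from pair 1, and without ACREB VIP library 1 it was 0.18. Under VIP, Gad1 was lower with ACREB than with control virus in all 3 libraries, by -0.84 (SE 0.24, interval -1.37 to -0.31), a 0.557-fold level, which did not pass over all genes (edgeR adjusted p = 0.420). With PBS the log2 difference was 0.44 (SE 0.26, interval -0.12 to 1.00, adjusted p = 0.956). The 2 virus contrasts reuse the libraries of the VIP contrasts and are no separate evidence.

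Gad1 overlaps Gad1os on the opposite strand, within introns only, and that gene had 17 to 34 counts in each library. The strand setting of the authors' counting is not given in the sources used here, so a part of either count could belong to its partner. Summed markers of GABAergic interneurons, which hold most Gad1 of the cortex, overlapped between the groups in which Gad1 did not. Their sums were 125, 155 and 85.4 CPM in control PBS libraries and 140, 154 and 94.3 CPM in control VIP libraries, with 0 of 6 tested members past the threshold (0 at an unadjusted p of 0.05, 0 by DESeq2). The vesicular GABA transporter Slc32a1, a defining marker, had 16 counts over the 12 libraries: 0, 0 and 1 in control PBS, 1, 3 and 7 in control VIP, 0, 0 and 4 in ACREB PBS, and 0 in each ACREB VIP library. Most of these few counts were in control VIP, the group in which Gad1 was highest, and their part in the Gad1 values was not tested. Oligodendrocyte lineage markers were lower with VIP in control cultures (1151 to 1600 CPM with PBS, 1011 to 1132 with VIP), as were ependymal markers (5 genes, led by Foxj1, 425 to 446 and 313 to 407 CPM), and their part in the results was not tested. In bulk RNA, a change in the number of cells of a type and a change in RNA per cell cannot be told apart.

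Gad2 (ENSMUSG00000026787, chromosome 2, 22622205 to 22693874, plus strand), the gene for GAD65, was near the detection limit. It had 6, 1 and 14 counts in control PBS libraries, 11, 6 and 12 in control VIP, 0, 4 and 3 in ACREB PBS and 5, 6 and 11 in ACREB VIP. The library with 0 counts allows up to 0.163 CPM by a limit of 3 counts. The ACREB VIP libraries (0.280 to 0.568 CPM) lay above the ACREB PBS libraries (0 to 0.242 CPM), but the log2 difference of 1.49 had an SE of 0.88 and an interval of -0.42 to 3.41 (adjusted p = 1.00). A VIP difference in control cultures was not detectable at this depth (log2 0.40, SE 0.71, interval -1.15 to 1.95), and moved to 1.36 without control PBS library 3.

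Of the 82 genes called for VIP in control virus cultures at an adjusted p under 0.05, 71 were higher. Of the 9 members 2 were called, Gad1 and Kctd8, both higher, a count that the choice of members fixed. Leaving out control PBS library 1, control PBS library 3 or control VIP library 1 left 0 members called, and leaving out control VIP library 2 left 1, Gad1, while both were called without control PBS library 2. All 12 such fits gave a higher level for both genes, with log2 differences of 1.47 to 1.81 for Gad1 and 2.26 to 2.90 for Kctd8. Over the members the median log2 difference was 0.00, beside -0.02 over all genes tested.

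Kctd8 (ENSMUSG00000037653, chromosome 5, 69109285 to 69341679, minus strand), a GABA-B auxiliary subunit gene, had the largest VIP difference of the set from a very low base. It had 9, 12 and 5 counts in control PBS libraries and 61, 67 and 36 in control VIP libraries, or 0.467, 0.689 and 0.265 CPM against 3.12, 3.34 and 1.90 CPM. The groups were well apart, with a log2 difference of 2.55 (SE 0.39, interval 1.69 to 3.41), or 5.86-fold, given as a description. A predicted gene on the other strand that overlaps it in an exon, Gm24368, had 1 count over all libraries.

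Kctd8 was also higher with VIP in the 3 libraries with ACREB. The ACREB libraries measured 0.272, 0.604 and 0.409 CPM with PBS and 1.12, 1.36 and 0.878 CPM with VIP, from 5, 10 and 7 and from 20, 25 and 17 counts. Every VIP library was above every PBS library. The log2 difference was 1.38 (SE 0.42, interval 0.46 to 2.30), or 2.61-fold, with an unadjusted p of 0.00674 in edgeR's quasi-likelihood test that did not pass over all genes (adjusted p = 1.00). It was the single member of 9 at an unadjusted p under 0.05 there, beside 322 of all 16761 genes. At the adjusted threshold 2 of 16761 genes (0.0119%) and 0 members were called, and DESeq2 called 0 members as well.

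At rest, Kctd8 showed no difference between the viruses beyond its spread (log2 -0.14, SE 0.46, interval -1.16 to 0.87). With VIP, Kctd8 was lower with ACREB in all 3 libraries, by -1.31 (SE 0.36, interval -2.09 to -0.54), a 0.403-fold level, and the test over all genes was not passed (adjusted p = 0.363). Same-numbered libraries differed between VIP and PBS by 1.05, 0.99 and 0.78 on the log2(CPM + 2) scale with control virus and by 0.46, 0.37 and 0.26 with ACREB. Each ACREB pair thus showed a smaller difference than its control pair, as did each pair of Gad1. At the low level of Kctd8 the pseudocount of 2 CPM shrinks these differences, and shrinks the ACREB ones more. The fitted differences of Kctd8, which do not use it, were 2.55 with control virus and 1.38 with ACREB. Comparisons with the control VIP libraries reuse those on which both genes were chosen and are no separate evidence.

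**Figure D3:**
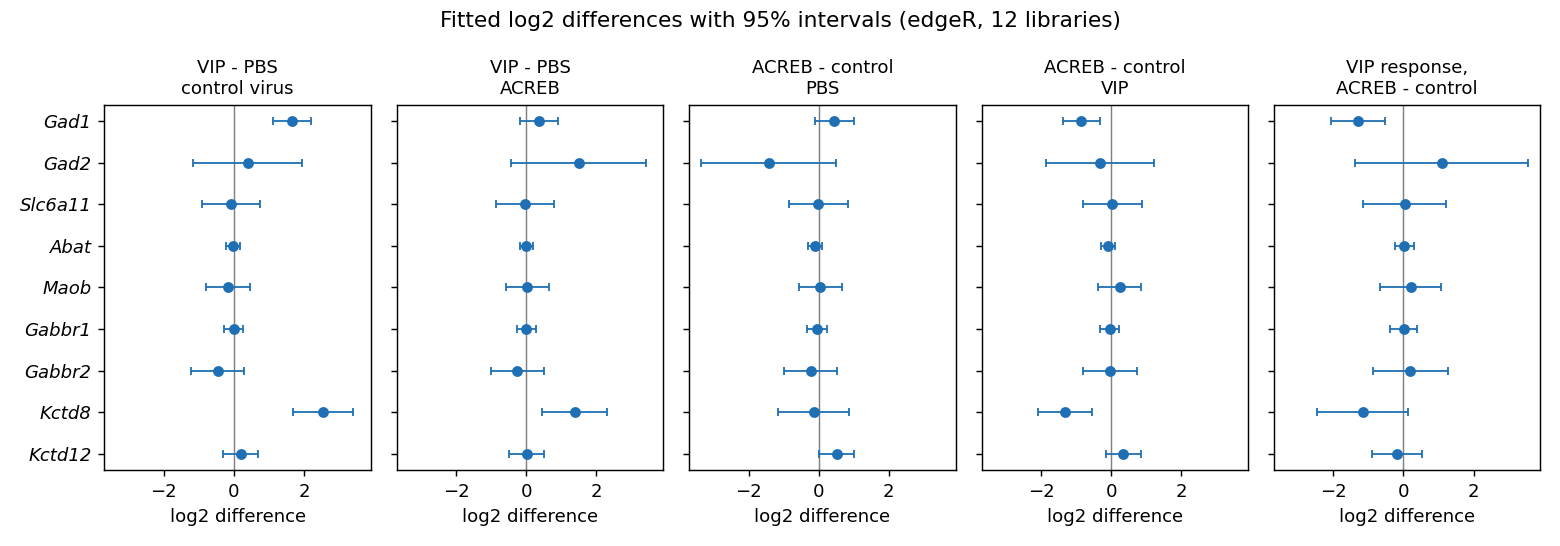
Fitted log2 differences of the 9 genes (points) with 95% intervals (bars) in 5 contrasts from the model of all 12 libraries: VIP minus PBS with each virus, ACREB minus control virus with each treatment, and the VIP response with ACREB minus that with control virus. Gad1 (1.66) and Kctd8 (2.55) lie to the right in the first panel, and Gad2 has the widest bars.

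The difference between the 2 VIP responses, ACREB minus control virus, was -1.29 for Gad1 (SE 0.35, interval -2.06 to -0.52) and -1.17 for Kctd8 (SE 0.59, interval -2.46 to 0.12). No gene passed the adjusted threshold in this contrast (0 of 16761, 0%, by edgeR and by DESeq2), and 201 genes had an unadjusted p under 0.05. Among the members 0 passed and 1, Gad1, had an unadjusted p under 0.05. The difference for Gad1 was in view when the members were chosen and is a description. That for Kctd8 reuses the control VIP libraries on which the gene was chosen. A difference in the VIP response between the viruses is therefore not shown for any member at the threshold over all genes.

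Profiles most like those of Gad1 and Kctd8 were sought among all tested genes with a standard symbol, by the root mean square (RMS) difference of centred log2(CPM + 2) over the 12 libraries. Both genes were chosen on their rise in the control VIP libraries, which this measure includes. Their closeness to each other and to genes that rise there is thus a description and no separate result. For Gad1 the closest were Ndel1 (RMS 0.167), Pard6a (0.178) and Kctd8 itself (0.192), against an SD of 0.490 of Gad1 over the libraries. For Kctd8 they were Ndel1 (0.109), Kcnk10 (0.140) and Aff1 (0.145), against an SD of 0.411, which the pseudocount of 2 keeps small at the level of Kctd8. The closest genes had smaller fold changes than Kctd8, whose mean rose from 0.474 CPM in control PBS to 2.79 in control VIP. The same means were 47.6 and 91.3 CPM for Ndel1, 80.7 and 154 for Kcnk10, and 90.8 and 164 for Aff1. The match therefore holds on this scale and not for the fold change. Ndel1, which encodes a dynein regulator, measured 45.3 to 51.4 CPM in control PBS, 75.8 to 110 in control VIP, 45.0 to 48.4 in ACREB PBS and 57.3 to 69.7 in ACREB VIP. The potassium channel gene Kcnk10 measured 74.3 to 87.9, 132 to 176, 74.0 to 84.2 and 93.7 to 126 CPM in the same order.

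**Figure D4:**
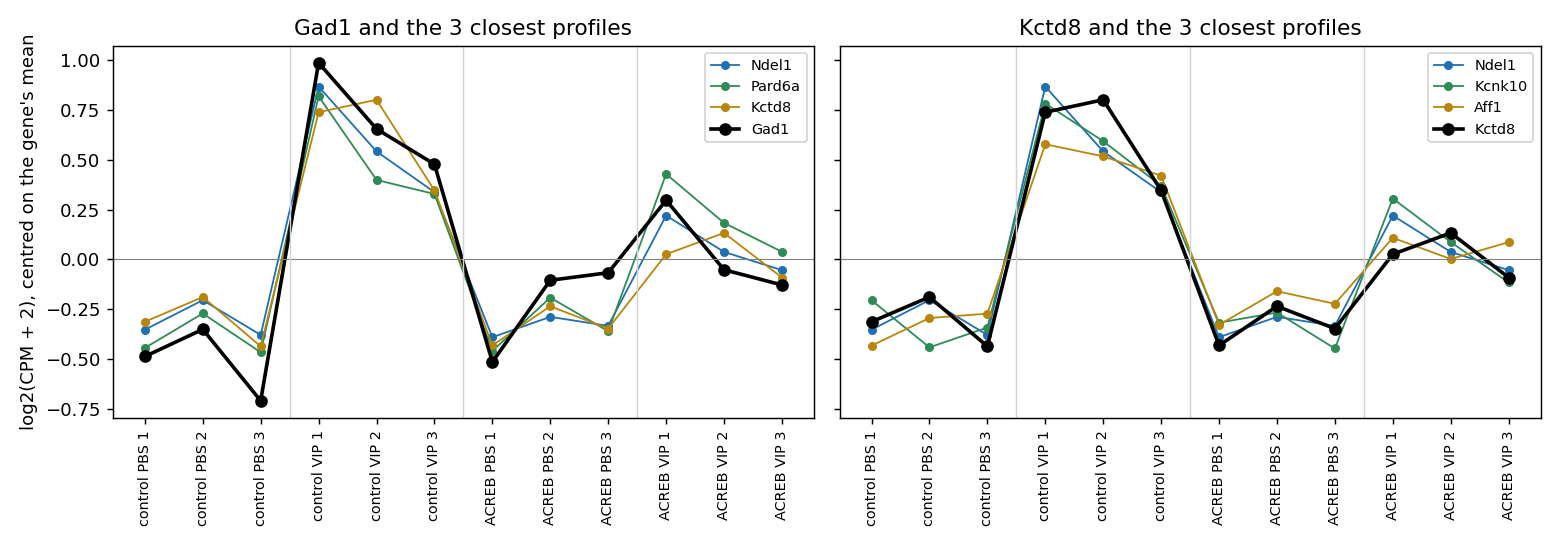
log2(CPM + 2), centred on each gene's mean over the 12 libraries, for Gad1 (left, black) and Kctd8 (right, black) with the 3 genes of closest profile (colours). All curves peak in the control VIP libraries, on which Gad1 and Kctd8 were chosen, and each ACREB VIP library lies below the control VIP library of the same number.

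Slc6a11 (ENSMUSG00000030307, chromosome 6, 114131241 to 114249952, plus strand), the GAT3 transporter, followed the library number. It measured 16.9, 11.0 and 24.9 CPM in control PBS, 15.5, 11.3 and 23.2 in control VIP, 16.2, 11.2 and 25.1 in ACREB PBS and 14.4, 12.2 and 24.7 in ACREB VIP. Library 3 was highest and library 2 lowest in all 4 groups, so that the spread within a group was wide. The VIP differences were -0.08 (SE 0.38) with control virus and -0.04 (SE 0.38) with ACREB. The first interval, 0.530- to 1.69-fold, shows how large a difference the unpaired fit could miss, and same-numbered control libraries differed by -0.11, 0.03 and -0.10 on the log2(CPM + 2) scale. The virus differences were 0.00 with PBS and 0.04 with VIP, both with an SE of 0.38.

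Abat (ENSMUSG00000057880, chromosome 16, 8513429 to 8621568, plus strand), GABA transaminase, had the smallest spread of the set relative to its level. It measured 243, 260 and 246 CPM in control PBS, 241, 253 and 244 in control VIP, 242, 228 and 224 in ACREB PBS and 221, 249 and 227 in ACREB VIP. The VIP interval in control cultures ran from 0.862- to 1.13-fold, and with ACREB from 0.878- to 1.15-fold. Every ACREB PBS library was below every control PBS library, but the log2 difference was -0.11 (SE 0.09, adjusted p = 0.956).

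Maob (ENSMUSG00000040147, chromosome X, 16709282 to 16817366, minus strand) was low in all groups, at 2.13 ± 0.540 CPM in control PBS, 1.90 ± 0.262 in control VIP, 2.19 ± 0.674 in ACREB PBS and 2.25 ± 0.369 in ACREB VIP (SD, n = 3), from 28 to 54 counts per library. The groups overlapped in every comparison. The largest of its 4 log2 differences was 0.25 (SE 0.28), between the viruses with VIP.

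Gabbr1 (ENSMUSG00000024462, chromosome 17, 37045966 to 37075067, plus strand), the GABA-binding subunit, showed no difference past its spread. It measured 69.2, 77.3 and 68.6 CPM in control PBS, 81.7, 62.2 and 71.0 in control VIP, 72.7, 67.4 and 68.2 in ACREB PBS and 75.9, 59.7 and 73.0 in ACREB VIP. All 4 groups overlapped. The VIP interval was 0.826- to 1.21-fold with control virus and 0.827- to 1.21-fold with ACREB.

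Gabbr2 (ENSMUSG00000039809, chromosome 4, 46662305 to 46991873, minus strand), the coupling subunit, measured 7.32, 11.3 and 5.04 CPM in control PBS, 4.80, 7.74 and 4.64 in control VIP, 6.92, 7.92 and 5.32 in ACREB PBS and 3.76, 8.17 and 4.91 in ACREB VIP. Library 2 was highest in all 4 groups, and groups overlapped throughout. The log2 difference for VIP in control cultures was -0.46 (SE 0.34, interval -1.21 to 0.29, adjusted p = 0.782), and without control PBS library 2, the one that stands apart, it was -0.11. Same-numbered control libraries differed by -0.45, -0.45 and -0.08 on the log2(CPM + 2) scale, lower with VIP in 3 of 3 pairs, and ACREB libraries by -0.63, 0.04 and -0.08. With ACREB the fitted difference was -0.26 (SE 0.35), and -0.63 without ACREB VIP library 2. The receptor pair thus showed no called difference in any of the 5 contrasts. The auxiliary subunit gene Kctd8 was called with VIP in control cultures, the contrast on which it was chosen. A difference between the genes was not tested.

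Kctd12 (ENSMUSG00000098557, chromosome 14, 102976581 to 102982637, minus strand), the abundant auxiliary subunit gene of these cultures, had larger fitted differences between the viruses than with VIP. None passed the adjusted threshold in the reported fit, and whether the contrasts differ was not tested. Kctd12 measured 128, 74.3 and 157 CPM in control PBS, 124, 127 and 160 in control VIP, 156, 151 and 207 in ACREB PBS and 157, 172 and 191 in ACREB VIP. Control PBS library 2 was lowest of all, and the groups overlapped. ACREB against control virus gave a log2 difference of 0.52 with PBS (SE 0.23, interval 0.02 to 1.02, adjusted p = 0.917) and 0.34 with VIP (SE 0.23, interval -0.16 to 0.84, adjusted p = 1.00). Leaving out control PBS library 2 changed the PBS difference to 0.27, and leaving out control PBS library 3 changed it to 0.76. With offsets for GC content and gene length and the replicate number as a block, both differences passed (0.41, adjusted p = 0.0178, and 0.40, adjusted p = 0.0142). In that setting 395 of all genes tested passed with PBS and 642 with VIP. The VIP differences were 0.19 (SE 0.23) with control virus and 0.01 (SE 0.23) with ACREB.

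**Figure D5:**
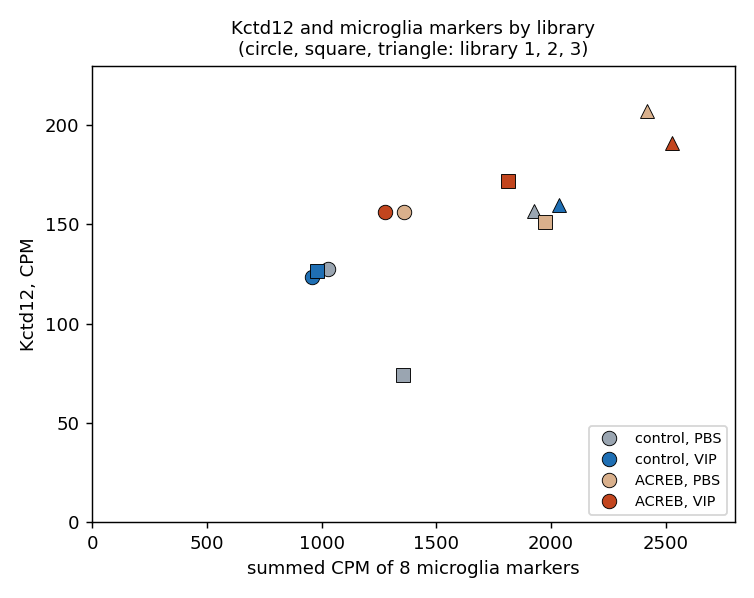
Kctd12 in CPM (vertical) against the summed CPM of 8 microglia markers (horizontal), 1 point per library, coloured by group and shaped by library number. Library 3 of each group lies to the right and, within its group, highest, and control PBS 2 lies lowest at 74.3 CPM.

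Microglia markers varied between the libraries as well. Their sums were 1027, 1356 and 1925 CPM in control PBS, 959, 982 and 2033 in control VIP, 1359, 1974 and 2419 in ACREB PBS and 1276, 1813 and 2529 in ACREB VIP, with none of the 8 markers at 0. For each number the sum was higher with ACREB than with control virus under the same treatment, as was Kctd12. None of the 8 markers passed the threshold between the viruses (0 at an unadjusted p of 0.05, 0 by DESeq2), and their part in the Kctd12 values was not tested. Kctd12 also shares exonic bases with Gm26778 on the opposite strand, which had 37 to 117 counts per library against 1294 to 3697 for Kctd12.

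ACREB against control virus called 6 of 16761 genes with PBS (0.0358%) and 9 with VIP (0.0537%), and 0 of the 9 members in either. At an unadjusted p under 0.05 there was 1 member with PBS, Kctd12, beside 889 of all genes tested, and there were 2 with VIP, Gad1 and Kctd8, beside 954. DESeq2 called 0 members in both. With GC and length offsets and the replicate block, 3 members passed with VIP: Gad1 at -0.85 (adjusted p = 0.0408), Kctd8 at -1.34 (0.0142) and Kctd12 at 0.40 (0.0142). In that setting 642 of all genes tested passed with VIP. Gad1 and Kctd8 were chosen on the control VIP libraries that this contrast reuses, so their values with VIP are no separate evidence. The medians over the members were -0.04 in each contrast, beside 0.01 and 0.00 over all genes tested.

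Around the members, 81 further genes of the pathway in 6 lists gave 60 that could be tested, and 0 of the 60 passed the threshold in any of the 5 contrasts. At an unadjusted p under 0.05 there were 4 of the 60 for VIP in control cultures, beside 1076 of all 16761 genes, and 2 for ACREB with VIP, beside 954. There were 0 for VIP with ACREB, for ACREB with PBS and for the difference of responses, beside 322, 889 and 201. Their median log2 difference for VIP in control cultures was -0.02, the same as over all genes. Of the 19 GABA-A receptor subunit genes, which form the chloride channels gated by GABA, 10 were tested with a median of 0.25, and Gabrb1 had 88.4 CPM on average. Its VIP difference in control cultures was 0.28 (SE 0.32). It was lowest in control PBS library 2, at 36.8 CPM, and next lowest in ACREB PBS library 2, at 57.7 CPM.

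Of the 8 transporter and release genes 3 were tested, with a median of -0.18 for VIP in control cultures. Those with the most CPM were Slc6a6, a taurine transporter (222 CPM), and Slc6a8, a creatine transporter (129 CPM), with VIP differences of -0.12 (SE 0.26) and -0.18 (SE 0.22). Of the 11 genes of GABA breakdown and the putrescine route 10 were tested, with a median of -0.07, and Odc1, which makes putrescine (388 CPM), and Azin1, which counters its inhibitor (239 CPM), had the most CPM, with VIP differences of -0.20 (SE 0.14) and 0.17 (SE 0.20). Per length Odc1 was also highest of the list (114 CPM per kb), but Azin1 (38.1) lay below Oaz1 (91.9), Oaz2 (60.6) and Sat1 (52.1). Sat1, the polyamine acetyltransferase of that route, is named after its values were seen. It measured 103, 130 and 137 CPM in control PBS and 220, 161 and 194 in control VIP, with no overlap. Its log2 difference was 0.64 (SE 0.15, adjusted p = 0.115), and it passed with the replicate block (0.64, adjusted p = 0.0412) and with DESeq2 (0.66, adjusted p = 0.00665).

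Of the 12 genes that supply glutamate and glutamine 11 were tested, with a median of 0.23 for VIP in control cultures. Slc1a3, a glutamate transporter of astrocytes (2087 CPM), and Glul, glutamine synthetase (1358 CPM), had the most CPM, with 0.23 (SE 0.10) and -0.23 (SE 0.22). The glutaminase gene Gls2, named after its values were seen, had 178 counts in all, and measured 0.318 to 0.415 CPM in control PBS and 0.899 to 1.94 in control VIP. Its log2 difference was 2.02 (SE 0.54, adjusted p = 0.210), and it passed with DESeq2 (2.06, adjusted p = 0.0416) and with the GC and length offsets and the block (2.12, adjusted p = 0.0396).

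Of the 13 GABA-B partner and effector genes 10 were tested, with a median of -0.05 for VIP in control cultures. The G protein subunit gene Gnai2 (867 CPM) and App, whose product binds GABBR1 (793 CPM), led with -0.24 (SE 0.15) and -0.04 (SE 0.14). Pianp, whose product binds GABBR1 as well, was named after its values were seen, and measured 1.69, 2.20 and 2.37 CPM in control VIP and 3.76, 4.09 and 4.39 in ACREB VIP, with no overlap. Its log2 difference between the viruses with VIP was 0.97 (SE 0.24, adjusted p = 0.290), and it passed with the block (0.98, adjusted p = 0.0498), with DESeq2 (0.96, adjusted p = 0.0475) and with the offsets and the block (0.94, adjusted p = 0.0153). Of the 18 other KCTD genes 16 were tested, with a median of -0.08 for VIP in control cultures and a range of -0.35 to 0.37. Kctd8, with 2.55, was chosen on this contrast and these genes were not, so its place outside their range is no result. Kctd10 (257 CPM) and Kctd17 (130 CPM), 2 relatives not known as GABA-B subunits, led with 0.21 (SE 0.13) and -0.21 (SE 0.13).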

How the data were processed

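The deposited values are raw counts of strand-specific polyA RNA-seq reads per Ensembl gene, which the authors did not normalize or pool. Trimmomatic 0.39, STAR 2.7.1a, HTSeq 0.11.2, R 3.6.1, edgeR and the GRCm38 (mm10) genome were named per the submitters' processing notes. HTSeq's strand setting is not given in the sources used here, nor its annotation. Groups came from the labels. The members and lists were chosen with earlier results of these data known.

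From the counts, edgeR 4.0.16 in R 4.3.3 (filterByExpr, TMM) fitted 1 quasi-likelihood model of 4 group means to all 12 libraries, with DESeq2 1.42.0 as an alternative. Tests were two-sided, with Benjamini-Hochberg adjustment over 16761 genes and a threshold of 0.05, and were tested on simulated data. SEs are the absolute log2 difference over the square root of F. CPM divide counts by TMM-adjusted library sizes. A pseudocount of 2 CPM was used for differences between same-numbered libraries and for profile likeness. Exon lengths and positions come from GENCODE M21 (GRCm38). Depth was 16571398 to 20529238 counts per library, and limits from counts cover counting error only.

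Beyond the 9 members, the text names the called genes of each list or else the 2 most abundant, and the most abundant marker of each list. Some genes that this rule named are not reported here. Dlx6os1 matched 2 identifiers and was left out. Departures from the group mean correlated above 0.1 in all 18 pairs of same-numbered libraries (correlations across genes 0.132 to 0.679; 17 of 18 above 0.1 on the log2(CPM + 2) scale), so a block by number was an alternative. The remaining alternatives were RLE scaling, no filter, fits to the libraries of 1 comparison, GC and length offsets, and leaving out each library.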

Additional observations from a re-analysis of the deposited data

How the results depend on the processing

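Gad1 and Kctd8 kept a higher level with VIP in control cultures in all 19 alternatives, with log2 differences of 1.47 to 1.81 and 2.26 to 2.90, and passed the threshold in 15 (adjusted p from 2.31e-07 to 0.129) and 14 of them (5.16e-06 to 0.162). The count of members called there was 2 with the replicate block, which changed no call of a member in any contrast, 0 when only the libraries of the comparison were fitted (which leaves fewer samples to estimate the spread), and 0 to 2 when single libraries were left out. With GC and length offsets and the replicate block it was 1 for ACREB with PBS (Kctd12) and 3 for ACREB with VIP (Gad1, Kctd8 and Kctd12). Pathway genes called for VIP in control cultures were 1 with the block (Sat1), 2 with DESeq2 (Sat1 and Gls2) and 2 with the offsets and the block (Gls2 and Kctd10). For ACREB with VIP they were 1 with the block and 1 with DESeq2 (both Pianp) and 3 with the offsets and the block (Glul, Pianp and Kctd10). The cause of the changes with the block, DESeq2 and the offsets was not tested. Low counts limit Gad2, Kctd8 and Gls2.

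Over all genes, the counts of called genes for VIP in control cultures, VIP with ACREB, ACREB with PBS and ACREB with VIP were 82, 2, 6 and 9 as reported. They were 245, 27, 94 and 122 with DESeq2, 274, 13, 37 and 61 with the replicate block, 156, 7, 30 and 48 with GC and length offsets, 606, 54, 395 and 642 with the offsets and the block, 131, 13, 15 and 18 without the filter, and 2, 1, 0 and 12 in fits to the libraries of 1 comparison. Leaving out single libraries gave 25 to 91, 1 to 5, 0 to 3 and 0 to 41. The difference of the VIP responses, which has no fit to the libraries of 1 comparison, called 0 genes in each of the other settings.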
